A study of Mus musculus with 6 samples.

Results

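Autotaxin, encoded by Enpp2, is a secreted lysophospholipase D that makes lysophosphatidic acid (LPA) from lysophosphatidylcholine outside the cell. LPA is read by G protein-coupled receptors of an Edg-type family (Lpar1, Lpar2 and Lpar3) and of a family related to purinergic receptors (Lpar4, Lpar5 and Lpar6). It is removed by lipid phosphate phosphatases of the cell surface (Plpp1, Plpp2 and Plpp3). In the gut this lipid is known for effects on epithelial migration, barrier function and sodium uptake, and autotaxin is known as a product of fat tissue, stroma and the venules through which lymphocytes enter lymphoid tissue.

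These 10 genes were selected by name from the 30777 genes of a table of RNA sequencing of mouse colon, and all 10 were found there. Enpp2 drew attention to the system because of its difference between the same 2 groups in these libraries, so its values in that comparison are given as a description, without a test. The other 9 genes were chosen because they act on the same lipid. The libraries came from colon tissue of BALB/c mice, an inbred strain. In 3 of them the mice had received 5-fluorouracil (5-Fu), a pyrimidine analogue that injures dividing epithelium, and in the other 3 they had received 5-fluorouracil with berberine, a plant alkaloid (5-Fu+BBR). Both groups thus carry the 5-fluorouracil treatment, and untreated colon was not analysed here. The labels name no dose, time, age or sex. Whether the 3 libraries of a group come from separate animals is not named, so each p-value rests on the spread among these libraries, which may be technical. Differences are given as 5-Fu+BBR minus 5-Fu, and "with berberine" and "without it" stand for the 2 groups.

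Depth was similar throughout, with summed estimated counts of 53824752 to 63831168 per library, and epithelial markers such as Epcam and Krt8 were abundant in all 6. Libraries 2 and 3 of 5-Fu+BBR also held kidney transcripts. A list of 8 kidney markers summed to 195 and 197 CPM (counts scaled to library size) in them, against 38.7 CPM in 5-Fu+BBR library 1 and 46.2 to 61.4 CPM in 5-Fu. Fold changes of the 10 genes are therefore also given from 5-Fu+BBR library 1 alone against the 3 libraries of 5-Fu. Of the 8 kidney markers, 7 had positive log2 fold changes and 1, Nphs1, a negative value (-0.51 ± 0.20, edgeR adjusted p = 0.285). Nphs1 weighs most in the kidney sums of 5-Fu. It averaged 34.6 ± 6.13 CPM without berberine and 24.3 ± 5.84 CPM with it, and the groups overlapped.

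Promoter sequences show how differently the genes of this system begin. The set of RefSeq promoters used here (GRCm38.p6) held entries for 8 of the 10 genes. It held none for Enpp2 and Plpp1, which is a limit of this set. Each entry runs from 250 bases before to 50 bases after a transcript start, 300 bases in all. The 5 printed here belong to the most abundant gene of the system (Plpp2), its most abundant receptor (Lpar1, the most upstream of 3 starts), and 3 receptors whose levels differ widely (Lpar6, Lpar2 and Lpar4). They are written 5′ to 3′ on the strand of the gene. Capitals mark 4 short motifs searched on both strands: the GC box GGGCGG, the CCAAT box, the TATA box TATAAA and the E-box CACGTG. The marks are matches of letters at any position in an entry, and use of these motifs was not tested. A GC box can share bases with a CCAAT box, as it does once in Lpar4.
Plpp2 (chr10:79533738-79534037, minus strand): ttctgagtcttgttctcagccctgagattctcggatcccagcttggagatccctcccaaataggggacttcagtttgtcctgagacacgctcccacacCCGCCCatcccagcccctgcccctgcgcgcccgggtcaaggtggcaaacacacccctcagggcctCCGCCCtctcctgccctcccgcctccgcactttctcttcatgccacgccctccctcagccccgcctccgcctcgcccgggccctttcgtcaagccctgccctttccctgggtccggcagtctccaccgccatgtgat
Lpar1 (chr4:58553442-58553741, minus strand): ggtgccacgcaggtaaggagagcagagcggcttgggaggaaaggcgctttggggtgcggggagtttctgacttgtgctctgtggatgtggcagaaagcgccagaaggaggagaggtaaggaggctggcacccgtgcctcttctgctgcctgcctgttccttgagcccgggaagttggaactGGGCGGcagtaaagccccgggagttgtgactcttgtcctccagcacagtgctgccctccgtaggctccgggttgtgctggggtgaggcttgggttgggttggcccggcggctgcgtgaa
Lpar6 (chr14:73237641-73237940, plus strand): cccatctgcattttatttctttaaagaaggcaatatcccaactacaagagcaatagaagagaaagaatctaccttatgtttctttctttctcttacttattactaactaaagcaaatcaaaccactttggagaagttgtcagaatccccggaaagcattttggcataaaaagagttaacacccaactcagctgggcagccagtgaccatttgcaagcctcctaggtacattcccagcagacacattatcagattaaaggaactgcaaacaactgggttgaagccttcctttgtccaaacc
Lpar2 (chr8:69822315-69822614, plus strand): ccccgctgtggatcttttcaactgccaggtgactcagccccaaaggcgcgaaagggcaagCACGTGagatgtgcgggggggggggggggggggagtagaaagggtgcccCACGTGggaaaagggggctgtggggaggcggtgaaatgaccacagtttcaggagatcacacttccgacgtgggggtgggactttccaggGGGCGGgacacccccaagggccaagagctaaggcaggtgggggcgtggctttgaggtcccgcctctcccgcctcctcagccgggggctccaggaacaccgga
Lpar4 (chrX:106920375-106920674, plus strand): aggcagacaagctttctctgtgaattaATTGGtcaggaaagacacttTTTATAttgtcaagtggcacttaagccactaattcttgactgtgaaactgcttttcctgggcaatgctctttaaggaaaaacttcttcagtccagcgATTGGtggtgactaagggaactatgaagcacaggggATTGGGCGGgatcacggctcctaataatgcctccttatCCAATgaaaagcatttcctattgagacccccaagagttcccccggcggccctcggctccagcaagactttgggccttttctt

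The Plpp2 promoter is 65.3% G and C, above 82.3% of the 32851 promoter entries, and holds 17 CpG dinucleotides and 2 GC boxes. The printed Lpar1 promoter has 63.0% G and C, 14 CpG and 1 GC box. The entries of the other Lpar1 starts differ from it, 1 with 71.7% G and C, 37 CpG and 1 GC box and 1 with 43.7% G and C, 3 CpG, 0 GC boxes and 1 CCAAT box. The Lpar6 promoter lies at the other end, with 40.0% G and C, 1 CpG and 0 matches to the 4 motifs. Lpar4 also begins in a stretch below the median of 52.7%, with 46.7% G and C, and holds 4 CCAAT boxes, 1 TATA box and 1 GC box. Lpar2 is the only one of the 8 genes with an E-box, which it holds in 2 copies beside 1 GC box. Across all entries, 35.7% hold a GC box, 37.4% a CCAAT box, 13.6% a TATA box and 7.15% an E-box. Composition did not order the levels of these 5 genes: the GC-rich Lpar2 promoter (66.0%) belongs to a gene that was far less abundant than Lpar6.

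Levels between genes were compared in FPKM, a measure scaled to both transcript length and library size. The genes covered a range of about 3 orders of magnitude. Plpp2 stood far above the rest, with a mean over the 6 libraries of 91.0 FPKM, higher than 98.4% of all genes in the table. Plpp1 (11.5 FPKM), Plpp3 (10.1 FPKM), Lpar1 (7.28 FPKM), Enpp2 (5.40 FPKM), Lpar5 (4.82 FPKM) and Lpar6 (3.99 FPKM) followed. Lpar3 (0.283 FPKM), Lpar2 (0.230 FPKM) and Lpar4 (0.0376 FPKM) were lowest. Neighbours in this order mostly did not separate: the ranges over libraries of Plpp1 and Plpp3 overlapped, as did those of Lpar5 and Lpar6 and those of Lpar2 and Lpar3. Clear steps lay between Plpp2 and Plpp1, between Lpar6 and Lpar3, and between Lpar2 and Lpar4.

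**Figure D1:**
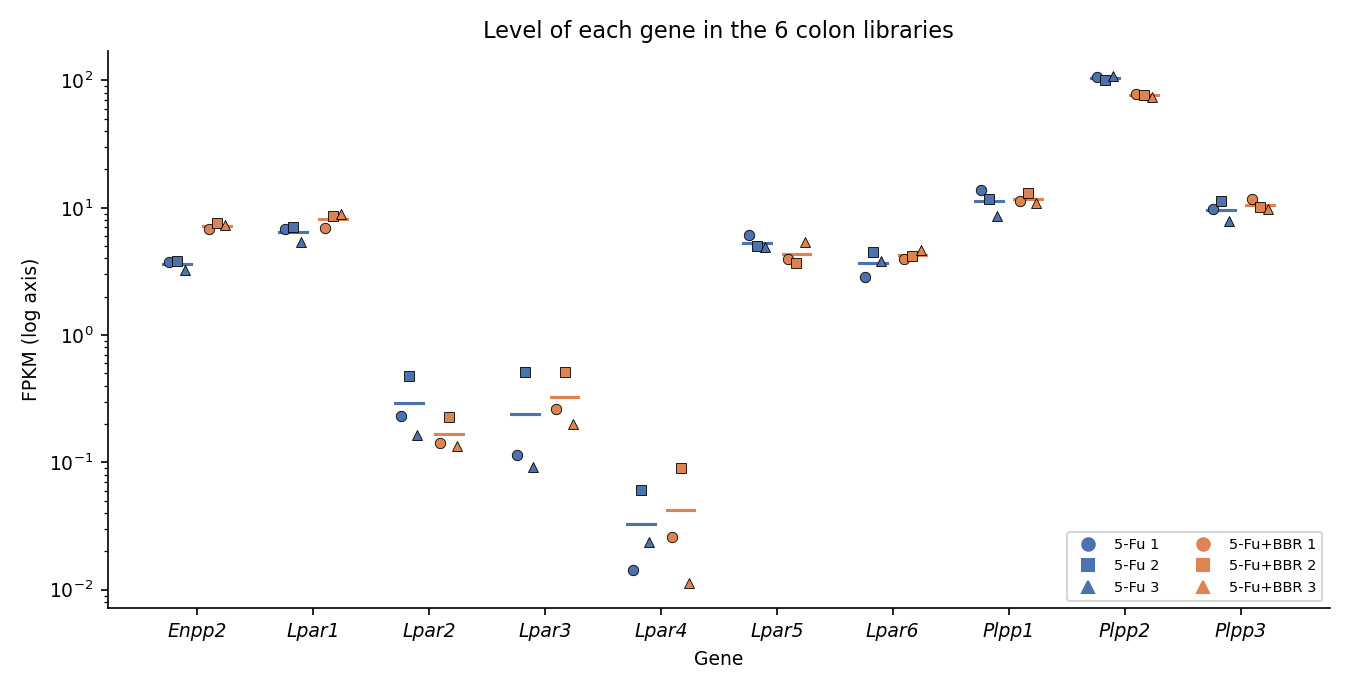
FPKM of each of the 10 genes on a log axis, with 1 symbol per library (shape gives the library number, colour the group) and a bar at the group mean. Plpp2 lies between 74.7 and 108 FPKM in all 6 libraries, Lpar2, Lpar3 and Lpar4 lie under 1 FPKM, and the groups separate for Enpp2 and Plpp2.

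Enpp2 was about 2-fold more abundant in 5-Fu+BBR, with little spread within each group. The gene lies on chromosome 15 (ENSMUSG00000022425, 54838901 to 54920125 of GRCm38, minus strand). Its level was 3.75, 3.79 and 3.23 FPKM in 5-Fu libraries 1 to 3 and 6.77, 7.58 and 7.29 FPKM in 5-Fu+BBR libraries 1 to 3. All libraries of 5-Fu+BBR lay above all libraries of 5-Fu, with a wide gap. In CPM, Enpp2 was at 25.6, 24.5 and 23.9 in 5-Fu and at 48.2, 50.6 and 49.6 in 5-Fu+BBR. The coefficient of variation in CPM was 3.56% in 5-Fu and 2.41% in 5-Fu+BBR, the lowest of the 10 genes, where the median gene had 18.9% and 15.5%. In FPKM it was 8.78% and 5.66%, above the 4.0% and 2.69% of Plpp2. Enpp2 was chosen for its difference in these same libraries, a choice that favours genes with low spread, so its place among other genes is a description. The fitted log2 fold change, 5-Fu+BBR minus 5-Fu, was 1.0 ± 0.10 (SE, n = 3 per group). In 5-Fu+BBR library 1 alone, which lacks the excess of kidney transcripts, it was 0.96 against the 3 libraries of 5-Fu.

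No receptor passed the test between groups. Of the 8 genes other than Enpp2 that were abundant enough to test, 0 passed an adjusted p of 0.05 by edgeR's quasi-likelihood test, and 2 (Lpar1 and Plpp2) had an unadjusted p under 0.05. Over all 20101 genes tested, 0.0746% passed (0.0597% higher and 0.0149% lower), and 15.6% had an unadjusted p under 0.05. DESeq2 called 1 of the 9 genes other than Enpp2 (Plpp2), beside 5.05% of the 21798 genes to which it gave an adjusted p. The median log2 fold change of the 8 genes was 0.10, beside 0.01 over all genes tested, with 5 positive and 3 negative values. Lpar4 was too low to test.

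**Figure D2:**
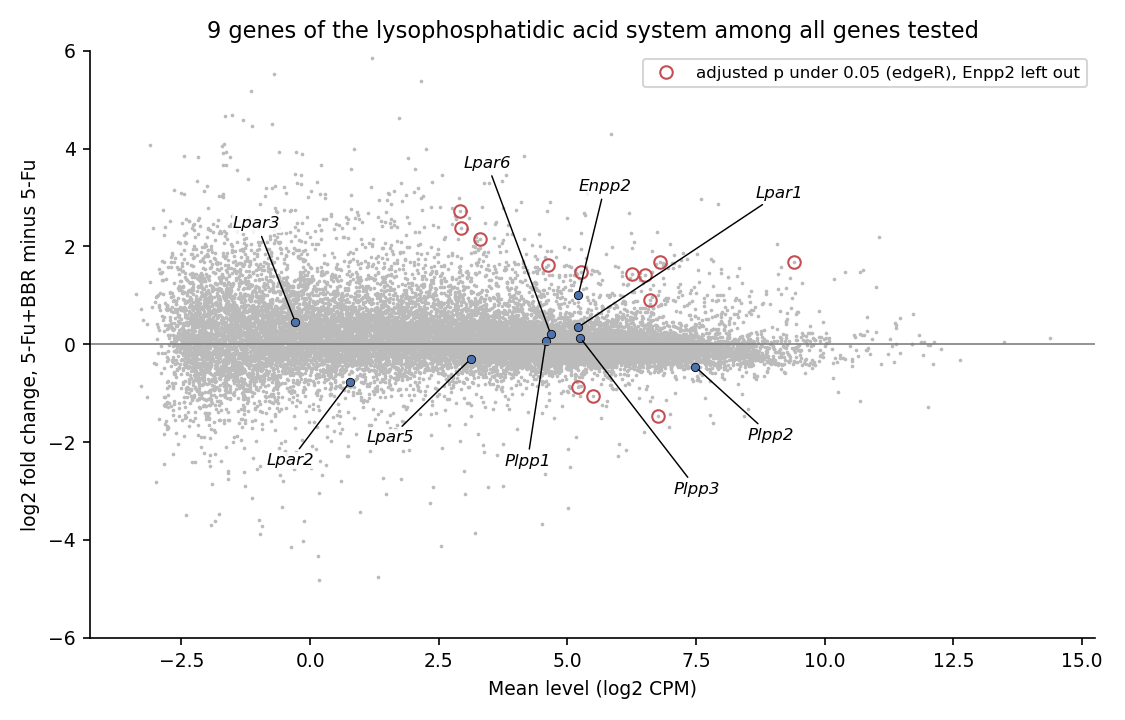
Log2 fold change (5-Fu+BBR minus 5-Fu) against mean level in log2 CPM for the 20101 genes tested, with the 9 tested genes of the system in blue and the 14 genes other than Enpp2 with an adjusted p under 0.05 circled; 14 genes beyond a log2 fold change of 6 in either direction are not drawn. Enpp2 is the highest blue point, at 1.0, and is drawn without a test; Plpp2 is the blue point farthest to the right.

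Lpar1, the receptor best known from fibroblast migration and fibrosis (ENSMUSG00000038668, chromosome 4, 58435255 to 58553628, minus strand), was the most abundant receptor. It was at 34.2, 33.8 and 29.6 CPM in 5-Fu libraries 1 to 3 and at 36.5, 42.8 and 44.9 CPM in the berberine libraries 1 to 3. The groups did not overlap in CPM, but the highest 5-Fu library (7.06 FPKM) exceeded the lowest 5-Fu+BBR library (6.91 FPKM) in the authors' own unit. The log2 fold change of 0.35 ± 0.12 did not pass (adjusted p = 0.244, edgeR). In 5-Fu+BBR library 1 alone it was 0.15.

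Lpar2, an Edg-type receptor known for protecting intestinal crypts from radiation (ENSMUSG00000031861, chromosome 8, 69822429 to 69831102, plus strand), was scarce. Its values were 0.233, 0.476 and 0.164 FPKM in 5-Fu and 0.141, 0.229 and 0.135 FPKM in 5-Fu+BBR. The groups overlapped, and library 2 was the highest of each. The log2 fold change was -0.77 ± 0.42 (adjusted p = 0.428, edgeR), a wide error, and deposited counts were only 56 to 226 per library.

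Lpar3, best known for its part in embryo implantation (ENSMUSG00000036832, chromosome 3, 146220963 to 146286186, plus strand), varied more within groups than between them. It was at 0.115, 0.516 and 0.0923 FPKM in 5-Fu and at 0.262, 0.514 and 0.199 FPKM in 5-Fu+BBR. Library 2 again stood highest in both groups, and the log2 fold change of 0.45 ± 0.68 was smaller than its error (adjusted p = 0.798, edgeR). Lpar4, a receptor known from blood vessel development (ENSMUSG00000049929, chromosome X, 106920625 to 106933900, plus strand), had counts of 4, 20 and 7 in 5-Fu and 8, 25 and 4 in 5-Fu+BBR. Low counts in the table pile up at 4 and 8, so such values may stand for only a few fragments, and a difference between groups was not detectable at this depth.

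Lpar5, which is expressed in gut epithelium and linked there to sodium uptake (ENSMUSG00000067714, chromosome 6, 125067920 to 125082472, plus strand), was lower on average in 5-Fu+BBR. It was at 6.07, 5.0 and 4.89 FPKM in 5-Fu and 3.99, 3.66 and 5.34 FPKM in 5-Fu+BBR. Library 3 of 5-Fu+BBR lay inside the range of 5-Fu, and the log2 fold change of -0.30 ± 0.21 did not pass (adjusted p = 0.541, edgeR). Lpar6, a receptor required for hair growth (ENSMUSG00000033446, chromosome 14, 73237895 to 73243294, plus strand), was at 2.85, 4.48 and 3.80 FPKM in 5-Fu and 3.97, 4.21 and 4.64 FPKM in 5-Fu+BBR. The groups overlapped, and the log2 fold change was 0.20 ± 0.17 (adjusted p = 0.615, edgeR). Lpar6 lies within Rb1, the retinoblastoma gene, on the opposite strand, and 408 of its 5400 exon bases overlap exons of Rb1 in the GENCODE M21 annotation. Rb1 itself averaged 66.8 CPM without berberine and 57.4 CPM with it. The sources used here do not say whether counting used strand, so reads of the shared bases cannot be assigned with certainty.

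Summed over the 6 receptors, the level was 14.4 to 17.6 FPKM in 5-Fu and 15.3 to 19.2 FPKM in 5-Fu+BBR, with overlap. The make-up of that sum differed between groups in these libraries. Lpar1 supplied 42.1%, 40.1% and 37.5% of it in 5-Fu and 45.2%, 49.8% and 46.3% in 5-Fu+BBR, without overlap. Lpar5 supplied 28.4% to 37.8% in 5-Fu and 21.1% to 27.8% in 5-Fu+BBR, also without overlap. The share of Lpar6 overlapped between groups (17.8% to 26.5% and 24.1% to 26.0%), and Lpar2, Lpar3 and Lpar4 together gave 1.80% to 5.98% in any library. As parts of the same sum the shares depend on each other, and the FPKM of Lpar1 and of Lpar5 themselves overlapped between groups. These shares restate the values above and were not tested.

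**Figure D3:**
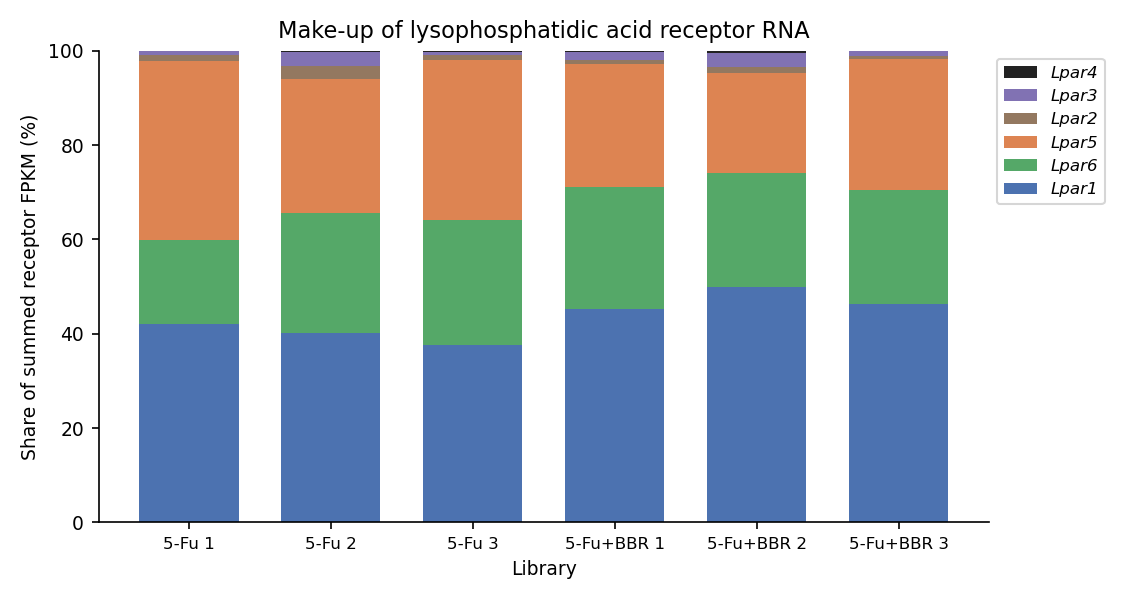
Stacked bars giving the share of each receptor, in percent, in the summed FPKM of the 6 LPA receptors, with 1 bar per library. The Lpar1 segment is taller in each 5-Fu+BBR library (45.2% to 49.8%) than in each 5-Fu library (37.5% to 42.1%), and Lpar2, Lpar3 and Lpar4 form thin bands at the top.

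Among the phosphatases, Plpp2 was the one whose groups separated, and it was lower in 5-Fu+BBR. Plpp2, which removes phosphate from LPA and related lipids (ENSMUSG00000052151, chromosome 10, 79526430 to 79533796, minus strand), was at 107, 100.3 and 108 FPKM in 5-Fu and at 78.9, 76.9 and 74.7 FPKM in 5-Fu+BBR. The lowest 5-Fu library exceeded the highest 5-Fu+BBR library by more than the range within either group in FPKM. In CPM the groups also did not overlap, but the gap between 185 and 161 was smaller than the range of 5-Fu (185 to 229). The mean in CPM went from 207 ± 22 without berberine to 151 ± 8.4 with it (SD, n = 3 each), 1.37-fold lower. The log2 fold change of -0.46 ± 0.12 did not pass over all genes (adjusted p = 0.154, edgeR) but did with DESeq2 (adjusted p = 0.035). In 5-Fu+BBR library 1 alone it was -0.38. Of the 9 genes other than Enpp2, 2 had groups that did not overlap in CPM (Lpar1 and Plpp2), a share near the 21.9% of all genes tested (12.3% higher and 9.68% lower).

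Plpp1 and Plpp3, the other surface phosphatases, did not separate the groups. Plpp1 (ENSMUSG00000021759, chromosome 13, 112800792 to 112867894, plus strand) was at 13.8, 11.6 and 8.54 FPKM in 5-Fu and 11.3, 13.1 and 10.8 FPKM in 5-Fu+BBR, so that 5-Fu held both its highest and its lowest value. Its log2 fold change was 0.06 ± 0.17 (adjusted p = 0.897, edgeR), and 452 of its 1750 exon bases overlap those of Mtrex on the opposite strand. Plpp3, which is needed for blood vessel formation (ENSMUSG00000028517, chromosome 4, 105157347 to 105232764, plus strand), was at 9.82, 11.3 and 7.90 FPKM in 5-Fu and 11.8, 10.2 and 9.81 FPKM in 5-Fu+BBR. The log2 fold change was 0.14 ± 0.14 (adjusted p = 0.674, edgeR). From 5-Fu+BBR library 1 alone, the log2 fold changes of the genes not yet given this way were -0.98 for Lpar2, 0.21 for Lpar3, -0.38 for Lpar5, 0.14 for Lpar6, 0.05 for Plpp1 and 0.33 for Plpp3, each with the sign it had over all libraries. Lpar4, which passed the count filter in that smaller fit, was at -0.34, whereas its ratio of mean CPM over all libraries was 0.38 on the log2 scale.

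Ratios to Enpp2 put these levels on the scale of the pathway. Plpp2 exceeded Enpp2 by 28.5, 26.5 and 33.5 times in FPKM in 5-Fu libraries 1 to 3 and by 11.6, 10.1 and 10.2 times in 5-Fu+BBR. The ratio of Plpp3 to Enpp2 was 2.45 to 2.98 in 5-Fu and 1.34 to 1.74 in 5-Fu+BBR. Lpar1 was 1.67 to 1.86 times as abundant as Enpp2 in 5-Fu and 1.02 to 1.22 times in 5-Fu+BBR. As Enpp2 enters each ratio, these values restate its difference and are not separate evidence.

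Other genes of LPA and related lysophospholipid metabolism and signalling were read from 8 lists. Of the 60 distinct genes tested, 0 passed by edgeR or limma-voom, and 10 had an unadjusted p under 0.05 with edgeR (16.7%, beside 15.6% of all genes). DESeq2 called 5 (8.33%, beside 5.05% of all genes). Their median log2 fold change was 0.15, with 39 positive and 21 negative values, and the groups did not overlap for 12 that were higher and 4 that were lower (26.7%, beside 21.9% of all genes).

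Among the other 5 ENPP enzymes tested, which are relatives of autotaxin that hydrolyse phosphodiester bonds in nucleotides or lipids, all 5 had positive log2 fold changes and 0 passed with edgeR. Enpp5 was nearest to passing, at 50.2 ± 4.71 CPM without berberine and 74.7 ± 6.61 CPM with it (0.57 ± 0.12 on the log2 scale, edgeR adjusted p = 0.108). Enpp6, a choline-specific phosphodiesterase, averaged 0.420 ± 0.299 CPM without berberine and 1.39 ± 0.702 CPM with it (1.71 ± 0.72 on the log2 scale, edgeR adjusted p = 0.310). Enpp4 averaged 44.5 ± 6.52 CPM without berberine and 60.5 ± 15 CPM with it, and the groups overlapped.

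Of the 7 lipases that can make LPA or its precursors inside or at the surface of cells, 3 had positive and 4 negative values, and 0 passed. Liph, a phosphatidic acid-selective lipase that makes LPA directly, was at 77.7 ± 4.0 CPM without berberine and 72.5 ± 11.3 CPM with it. Pla2g2a, a secreted phospholipase, varied widely, averaging 405 ± 173 CPM without berberine and 229 ± 87.4 CPM with it (adjusted p = 0.397, edgeR). Pla2g6 had groups that did not overlap, averaging 8.68 ± 0.509 CPM without berberine and 11.7 ± 0.409 CPM with it (adjusted p = 0.246, edgeR). The 8 acyltransferases that turn lysophospholipids such as LPA back into phospholipids split into 4 positive and 4 negative values, between -0.18 and 0.32.

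The list of 7 other phosphatases and relatives tested had 4 positive and 3 negative values, a median of 0.29 and 0 past the threshold by edgeR. Plpp6, a relative that acts on isoprenoid phosphates, averaged 46.9 ± 1.97 CPM without berberine and 41.1 ± 3.57 CPM with it, without overlap (adjusted p = 0.431, edgeR).

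Of the genes below the receptors, 0 passed by edgeR. Of 8 G protein alpha subunits, Gnas was at 511 ± 25.9 CPM without berberine and 698 ± 34.3 CPM with it (adjusted p = 0.158), and Gnai3 at 237 ± 24 and 182 ± 18.8 CPM (adjusted p = 0.227, edgeR). All 9 genes known as targets of the transcription factors YAP and SRF had positive values, with a median of 0.52 and 0 past the threshold by edgeR. Those with the smallest p were the smooth muscle genes Tagln (0.64 ± 0.13 on the log2 scale, edgeR adjusted p = 0.113) and Acta2 (0.66 ± 0.14, adjusted p = 0.120) and the receptor kinase gene Axl (0.52 ± 0.13, adjusted p = 0.154).

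Genes of sphingosine-1-phosphate, a lysophospholipid whose receptors are close relatives of the Edg-type LPA receptors, had a median of 0.13 over 9 genes tested, with 0 past the threshold by edgeR. S1pr3 was at 8.16 ± 2.73 CPM without berberine and 16.5 ± 2.66 CPM with it (1.02 ± 0.25 on the log2 scale, edgeR adjusted p = 0.151), a fitted value close to that of Enpp2 but with wider spread. S1pr4, a receptor of lymphoid cells, averaged 1.35 ± 0.646 CPM without berberine and 2.50 ± 0.305 CPM with it (adjusted p = 0.359, edgeR). Sgpp1, a phosphatase that removes intracellular sphingosine-1-phosphate, averaged 34.9 ± 3.02 CPM without berberine and 28.5 ± 3.5 CPM with it (adjusted p = 0.344, edgeR).

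**Figure D4:**
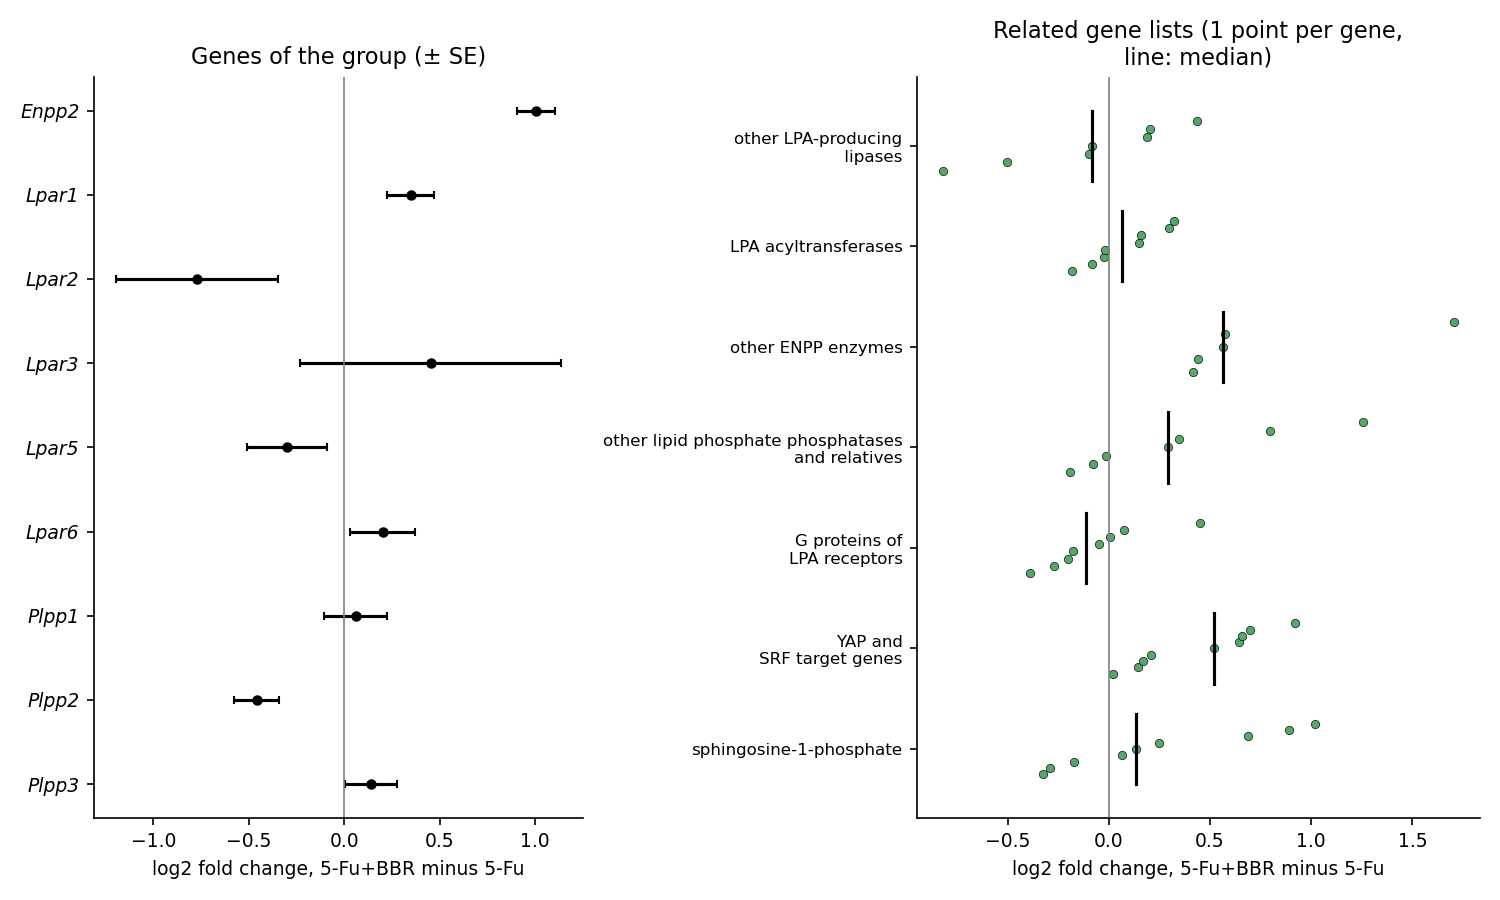
Log2 fold changes (5-Fu+BBR minus 5-Fu) for the 9 tested genes of the system with their standard errors (left) and for the genes tested of 7 of the 8 related lists, 1 point per gene with a line at each median (right). Enpp2 lies at 1.0 and Plpp2 at -0.46, and all 5 other ENPP enzymes and all 9 YAP and SRF targets lie above 0.

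Whole colon tissue mixes many cell types, and in such samples more cells of a type and more RNA per cell cannot be told apart. Marker lists were therefore set beside Enpp2. Of the 7 smooth muscle markers, all 7 had positive log2 fold changes, 0 passed by edgeR and 5 had an unadjusted p under 0.05. The 7 summed to 1425 to 1928 CPM without berberine and 2868 to 3258 CPM with it. Taking the list median of each library from Enpp2, with the 5-Fu mean as 0, left -0.12, 0.30 and -0.19 on the log2 scale in 5-Fu and 0.28, 0.14 and 0.23 in 5-Fu+BBR, which overlap. T cell markers gave a like picture: 6 of 6 were positive, their sum was 17.9 to 24.9 CPM in 5-Fu and 39.2 to 60.7 CPM in 5-Fu+BBR, and Enpp2 relative to their median overlapped between groups. The part of these cell types in the difference of Enpp2 was not tested.

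The 8 adipocyte markers were all positive, each with an unadjusted p under 0.05, 0 passed by edgeR, and the list median was 3.19 on the log2 scale. Their sum spanned 66.6 to 94.1 CPM without berberine and 159 to 246 CPM with it. Pck1 and Fabp4 weigh most in that sum, and its value of 159 CPM came from 5-Fu+BBR library 1, which lacks the excess of kidney transcripts. Of the 8, 1 to 4 had a count of 0 in each 5-Fu library, the leptin gene Lep in all 3, and 0 were at 0 in 5-Fu+BBR. Enpp2 minus the adipocyte list median was -0.38 to 0.38 without berberine and -2.33 to -1.54 with it. With so many markers at or near 0 in 5-Fu, the size of that difference depends in part on the pseudocount of 0.1. Fat tissue is a known source of autotaxin, and its part in the difference of Enpp2 was not tested.

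Fibroblast and blood endothelial markers overlapped between the groups. The 8 fibroblast markers summed to 978, 2089 and 487 CPM in 5-Fu libraries 1 to 3, while Enpp2 was at 25.6, 24.5 and 23.9 CPM in the same libraries. In 5-Fu+BBR they summed to 1358 to 1943 CPM, inside the range of 5-Fu. The blood endothelial list had 3 positive and 4 negative values. Enpp2 minus its median was -0.51 to 0.34 in 5-Fu and 0.69 to 1.33 in 5-Fu+BBR. Markers of lymph node stroma and high endothelial venules, a known site of autotaxin, had 3 positive and 2 negative values and summed to 176 to 196 CPM without berberine and 164 to 223 CPM with it, a sum in which Chst4 and Cxcl13 weigh most. Their list medians did not overlap, at -0.65 to 0.19 and 0.27 to 1.10, and Ccl21a averaged 37.1 ± 13.4 CPM without berberine and 74.6 ± 16.5 CPM with it (adjusted p = 0.212, edgeR). Enpp2 minus this median overlapped between groups, at -0.20 to 0.71 and -0.06 to 0.74, and the part of these cells was not tested. Epithelial markers overlapped as well, at 11202 to 14971 CPM without berberine and 12494 to 15202 CPM with it, with 5 positive and 3 negative values. Plpp2 minus the epithelial list median was -0.10 to 0.04 without berberine and -0.58 to -0.47 with it. The part of fibroblast, endothelial and epithelial content in the differences of Enpp2 and Plpp2 was not tested.

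Lists with higher values with berberine included B and plasma cells (7 of 7 positive, summed 1424 to 2669 CPM without it and 3093 to 6753 CPM with it) and macrophages and monocytes (5 of 6 positive, 339 to 430 CPM and 540 to 684 CPM), with 0 genes past the threshold by edgeR in either. Lyz2 weighs most in the macrophage and monocyte sum, averaging 295 ± 54.7 CPM without berberine and 501 ± 67.9 CPM with it. Cd163 went the other way without overlap, at 7.59 ± 2.07 and 3.77 ± 0.853 CPM (adjusted p = 0.182, edgeR). The median log2 fold change of that list was 0.21. Mast cell markers had 5 of 5 positive values, from 0.0007 to 3.09 on the log2 scale. Their sums overlapped, at 6.09 to 10.5 CPM without berberine and 10.4 to 15.2 CPM with it. Relative to the 5-Fu mean, their median was -0.05 to 0.22 without berberine and 0.61 to 1.99 with it on the log2 scale. Mcpt4, Tpsb2 and Cpa3 averaged only 0.200, 0.152 and 0.249 CPM without berberine. All 5 lymphatic endothelial markers were positive as well, with medians of -0.05 to 0.14 and 0.23 to 0.43. Sums of that list overlapped, at 36.8 to 44.7 CPM without berberine and 39.3 to 57.0 CPM with it. Enpp2 minus the list median overlapped between groups for B and plasma cells and for mast cells. It did not overlap for macrophages and monocytes (-0.07 to 0.09 without berberine, 0.68 to 0.89 with it). Nor did it for lymphatic endothelium (-0.18 to 0.11 and 0.54 to 0.78). The part of these cells in the difference of Enpp2 was not tested.

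**Figure D5:**
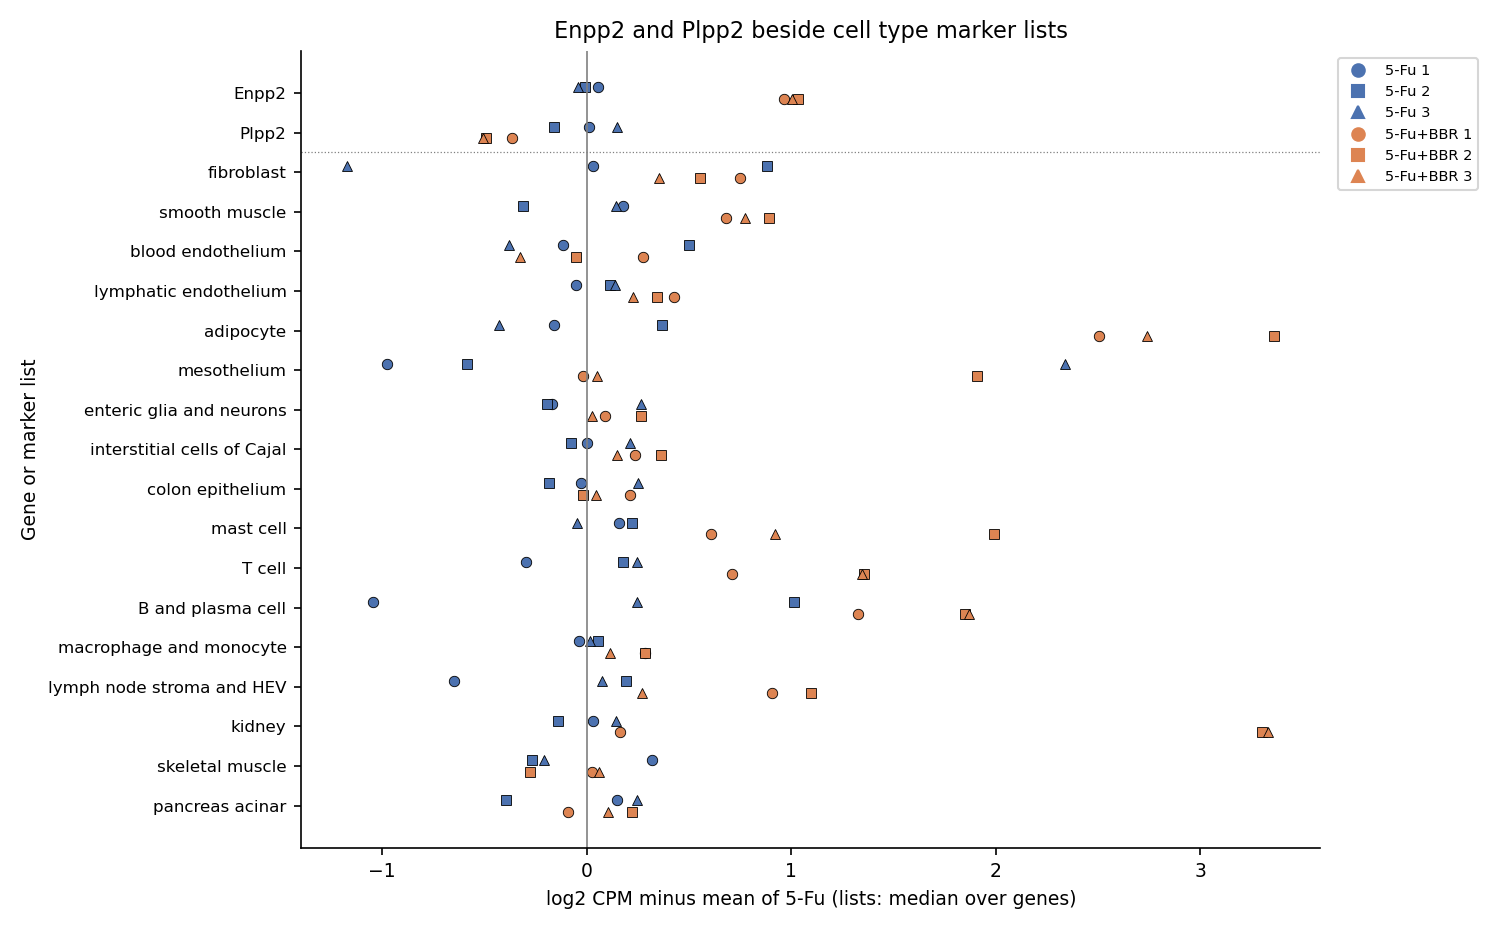
Log2 CPM of Enpp2 and Plpp2, and the median over each marker list, in each library relative to the mean of 5-Fu (HEV, high endothelial venule; shape gives the library number, colour the group). Enpp2 sits between -0.05 and 0.06 in 5-Fu and between 0.97 and 1.03 in 5-Fu+BBR, adipocyte markers lie farther to the right, and kidney markers are high in 5-Fu+BBR libraries 2 and 3.

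The genes whose pattern over the 6 libraries was most like that of Enpp2 were named by Pearson correlation of log2 CPM. The comparison covered 11644 tested genes with a mean of at least 1 FPKM over the 6 libraries. Predicted genes and immunoglobulin and T cell receptor gene segments were left out beforehand, so their likeness to Enpp2 is not given. Among the genes compared, the 8 most like Enpp2 were H2-Q5 (r = 0.994), Tpm1 (0.992), C1qtnf3 (0.991), Cd74 (0.990), Tmem86a (0.990), H2-Q7 (0.988), Cd27 (0.986) and Cav1 (0.984). C1qtnf3 (0.651 FPKM in 5-Fu, 4.33 FPKM in 5-Fu+BBR) and Cd27 (0.442 and 1.71 FPKM) reached the minimum of 1 FPKM only through 5-Fu+BBR. The points share 6 libraries and the same group difference that drew attention to Enpp2, and the r values are descriptions. The 8 include antigen presentation genes (Cd74 and the class I genes H2-Q5 and H2-Q7, near-identical copies whose single values are uncertain), a lymphocyte receptor (Cd27), a muscle tropomyosin (Tpm1) and the caveolar protein gene Cav1. Tmem86a, which encodes an enzyme that breaks down lysoplasmalogens, another kind of lysophospholipid, was at 7.81 ± 0.618 CPM without berberine and 14.9 ± 0.958 CPM with it (log2 fold change 0.93).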

How the data were processed

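RNA was measured in 6 libraries of mouse colon. Per the labels' protocols, polyadenylated RNA was made into strand-marked libraries with molecular identifiers and sequenced as paired reads of 150 bases. The submitters' processing notes name the build GRCm38 and, without role or order, edgeR, DESeq2, UMI-tools, StringTie (1.3.4d), HISAT2 (2.0.4) and cutadapt (1.9). No annotation version is named there. The deposited table holds, per the file headers, whole-number estimated counts and FPKM, both made by the authors. For 93.6% to 93.8% of 2599 genes with 1 transcript and over 50 counts, the count was within 2% of FPKM times GENCODE M21 transcript length and a library constant, so the deposited counts were treated as estimates. The value 4 occurred 5414 times in the table, against 3539 for 3 and 1953 for 5. Intervals of counting error were therefore not given.

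Counts were filtered with filterByExpr (20101 of 30777 genes kept), scaled with TMM and tested without covariates. The quasi-likelihood test with robust dispersions (edgeR 4.0.16, run in R 4.3.3) was two-sided and covered the whole table, and p-values were adjusted by Benjamini and Hochberg's method over every gene that entered it. CPM are on the TMM scale, and log2 CPM values use a pseudocount of 0.1. Alternatives were 2 filters, DESeq2 size factors, DESeq2 1.42.0, limma-voom and limma-trend (limma 3.58.1), counts divided by 4, an adjusted p of 0.1, a replicate block, leaving out each library, and 5-Fu+BBR library 1 alone. Of the 8 related lists, 1 enters the summed counts but is not reported here. The steps were tested on simulated data. Promoters came from RefSeq. Figures used Python 3.11.15 with pandas 2.3.3 and matplotlib 3.10.9.

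The 10 genes, the gene and marker lists and the alternatives were chosen with earlier results of these data known. Genes named besides the 10 were those of the lists with the smallest p (up to 3 per list), the 8 most like Enpp2 and the 5 most like Plpp3. Liph, S1pr1, Krt8, Cxcl13, Pck1, Nphs1, Rb1 and Mtrex fall outside that rule and were chosen after their values were seen.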

Additional observations from a re-analysis of the deposited data

How the results depend on the processing

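The log2 fold change of Enpp2 was 0.84 to 1.03 over 16 alternatives, lowest on log2(FPKM + 1), a scale that understates changes of low genes. Plpp2 stayed negative (-0.53 to -0.37), and of the 9 genes other than Enpp2 it was the only one that any of these alternatives called, by DESeq2. When 1 library was left out, Plpp1 ranged from -0.058 to 0.22: it was -0.058 without 5-Fu replicate 3 and -0.0035 without 5-Fu+BBR replicate 2, and the other tested genes kept their sign in all alternatives that could test them. Against 12 higher and 3 lower with edgeR, there were 91 and 22 with the replicate block, 64 and 13 with no filter, 119 and 25 at an adjusted p of 0.1, and 839 and 261 with DESeq2. With 5-Fu+BBR replicate 1 alone there were 0 and 0 (1331 at an unadjusted p under 0.05), where the lone library is assumed to vary like 5-Fu. Leaving out 1 library gave 0 to 145 higher and 0 to 15 lower genes; both were 0 without 5-Fu replicate 1 (2062 at an unadjusted p under 0.05) and without 5-Fu+BBR replicate 2 (1888), and 145 was reached without 5-Fu replicate 2. Genes called in the 8 related lists rose from 0 to 5 with DESeq2 (Enpp5, Gnas, Tagln, Acta2 and S1pr3) and ranged from 0 to 2 when a library was left out (S1pr1 and S1pr3 without 5-Fu replicate 2). The causes were not tested. The labels link same-numbered libraries of the groups by number alone. Deviations of these libraries from the group means correlated at 0.04, 0.05 and 0.19. Replicates 1 and 3 of 5-Fu correlated best with their own number, and 5-Fu replicate 2 with another (0.16 with 5-Fu+BBR replicate 1). Whether the libraries were paired or shared a batch was not tested. The replicate block changed no call among the 9 genes other than Enpp2. Lpar2, Lpar3 and Lpar4 had deposited counts of only 4 to 226 per library and coefficients of variation in CPM of 28.9% to 93.1% within groups. The parts of depth and of other differences between libraries in that spread were not tested.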

Other observations

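Plpp3, a phosphatase whose groups overlapped, was compared with the same 11644 genes. Its pattern over the 6 libraries was matched most closely by Tmem254b (r = 0.998), Ubap2 (0.997), Ddost (0.986), Snai1 (0.980) and Nisch (0.975). In each of these 5 genes the log2 fold change between groups was between 0.07 and 0.42 and smaller than the change of Enpp2. Snai1, a transcription factor of mesenchymal transition, averaged 2.26 ± 0.632 CPM without berberine and 3.02 ± 1.12 CPM with it. The points are 6 libraries, and the r values are descriptions.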
